A study of Mus musculus with 4 samples.

Results

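The genes described here encode the proteasome, the protease complex that degrades ubiquitin-tagged proteins. They were taken as the protein-coding rows whose GENCODE vM21 symbol begins with Psma, Psmb, Psmc, Psmd, Psme or Psmg and a number, leaving out Psmb8, Psmb9 and Psmb10. This gave 46 of the 35275 genes in the table. Of these, 44 passed the filter on low values (a mean of at least 1 RPKM over the 4 libraries, where RPKM is the read count scaled to transcript length and library size), as did 11625 genes in all. RNA was measured in double-negative regulatory T cells (DNT) of the mouse, αβ T cells without CD4 and CD8 that restrain other immune cells. The cells were converted from naive CD4 T cells, and the sort kept those with CD3 and TCRαβ but without NK markers, CD4 or CD8. There were 2 wild-type and 2 OX40-knockout libraries, all of the C57BL/6 strain, and they are named by group and replicate number. OX40, encoded by Tnfrsf4, is a costimulatory receptor of activated T cells. Age, sex and the deleted part of the gene are not stated in the labels, nor whether each replicate is its own animal or culture. The p-values therefore measure only how these libraries vary, which may be technical variation.

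The core of the proteasome is a barrel of stacked rings. The outer alpha rings form the gate and the inner beta rings carry the active sites, which are the products of Psmb5 (chymotrypsin-like), Psmb6 (caspase-like) and Psmb7 (trypsin-like). A regulatory cap binds each end. Its base holds the ATPases Psmc1 to Psmc6, which unfold the substrate, and its lid holds the deubiquitinase Psmd14, which removes the ubiquitin chain. Other activators, encoded by the Psme genes, can replace the cap, and chaperones such as those of the Psmg genes assemble the particle and are then released. In T cells the proteasome makes peptides for MHC class I, degrades cyclins and processes and releases NF-kB. Under interferon, Psmb8, Psmb9 and Psmb10 replace the catalytic subunits to give the immunoproteasome.

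Library totals, estimated from the RPKM values, were 22220888 to 24395743 reads. OX40-knockout 1 stood apart from the other 3, and over all tested genes with a GC value its deviation from the 4-library mean rose with transcript GC content (r = 0.44 over 11575 genes, a description). T cell receptor genes were high in all 4 libraries (Cd3d, Cd3e, Cd3g, Cd247 and Trac, 40.1 to 769 RPKM), while Cd4 was at 10.1 RPKM in OX40-knockout 1 and at 0.82 to 2.06 RPKM in the others. Cd8a was at 16.6 RPKM in OX40-knockout 1 and at 9.03 to 10.5 RPKM in the others, and Cd8b1 at 2 to 4.44 RPKM, although the sort was against CD8. B cell markers were at 0.9 RPKM or less and Foxp3 at 0.144 RPKM or less. The NK genes Klrb1c and Eomes lay between 42.8 and 160 RPKM, lowest in OX40-knockout 1, although the sort was against NK markers, and Ncr1 was at 0.408, 7.93, 0.183 and 7.49 RPKM in wild-type 1 and 2 and OX40-knockout 1 and 2. The dendritic and myeloid list summed to 165 RPKM in OX40-knockout 1 and to 70.2 to 91.9 RPKM elsewhere. Nearly all of it was the MHC class II gene H2-Ab1, with Csf1r at 0.182 RPKM or less. Lyz2 and Itgax were lowest in OX40-knockout 1, at 1.07 and 0.812 RPKM. Tnfrsf4 itself was at 18.2 and 12.3 RPKM (wild-type) and 12.1 and 9.38 RPKM (knockout), which checks the labels little without knowing which exons were removed.

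Promoters were read for motifs because many of these genes were low together in 1 library, as described further on. Whether genes with a motif were the ones low there was not tested. RefSeq promoters (GRCm38.p6, from 250 bases before to 50 after the start) were found for 38 of the 46 genes, 41 promoters in all. Psma8, Psmb1, Psmb2, Psmb7, Psmc3, Psmd3, Psmd7 and Psmg2 had none. The sequence CCGGAAG, the core that ETS factors bind, was in 16 of 41 promoters (39%), among them that of Psmc3ip, which is no subunit. The same sequence was in 8.86% of all 32851 promoters and 18.7% of the 11249 promoters of tested genes. The antioxidant response element core TGACNNNGC, which the transcription factor Nfe2l1 can bind as the known activator of proteasome genes, was in 6 of 41 (14.6%), against 12.4% of all promoters and 14.5% of those of tested genes. The CCAAT box was in 14 of 41 (34.1%), against 37.4% of all promoters. Both strands were searched for 9 motifs. The shorter ETS core TTCCGG, which overlaps the longer form, was in 21 of 41 (51.2%, against 28.8% in tested genes). The GC box GGGCGG was in 23 of 41 (56.1% against 62.6%), the E-box CACGTG in 3 (7.32% against 9.93%) and the nuclear respiratory factor palindrome in 2 (4.88% against 2.2%). A specific form of the antioxidant element core, TGACTCAGC, and the cAMP response element TGACGTCA were in none, against 0.382% and 3.24%.

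The promoters below show the motif matches in an alpha, a catalytic and an ATPase gene. They are given 5′ to 3′ with the start after base 250, and capitals mark CCGGAAG, TGACNNNGC or CCAAT on either strand. Shown are the alpha subunit Psma6 with 3 ETS cores, the catalytic subunits Psmb5 and Psmb6, each with 1 antioxidant element core, and the ATPase Psmc6 with 1 of each. Psma6 is at chr12:55398575-55398874 (plus strand), Psmb5 at chr14:54617946-54618245 (minus strand), Psmb6 at chr11:70525107-70525406 (plus strand) and Psmc6 at chr14:45329574-45329873 (plus strand).
Psma6: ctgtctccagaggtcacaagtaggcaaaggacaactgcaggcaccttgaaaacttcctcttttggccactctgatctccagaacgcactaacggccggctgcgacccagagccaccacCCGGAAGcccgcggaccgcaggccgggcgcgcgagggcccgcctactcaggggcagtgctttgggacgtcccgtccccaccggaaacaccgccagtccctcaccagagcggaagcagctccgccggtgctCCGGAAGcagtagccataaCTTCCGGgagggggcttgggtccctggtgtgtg
Psmb5: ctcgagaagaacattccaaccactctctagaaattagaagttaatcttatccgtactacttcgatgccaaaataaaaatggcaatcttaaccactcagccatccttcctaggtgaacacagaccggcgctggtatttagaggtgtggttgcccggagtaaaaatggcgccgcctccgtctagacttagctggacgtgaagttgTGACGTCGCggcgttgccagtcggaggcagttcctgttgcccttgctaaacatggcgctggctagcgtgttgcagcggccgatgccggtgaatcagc
Psmb6: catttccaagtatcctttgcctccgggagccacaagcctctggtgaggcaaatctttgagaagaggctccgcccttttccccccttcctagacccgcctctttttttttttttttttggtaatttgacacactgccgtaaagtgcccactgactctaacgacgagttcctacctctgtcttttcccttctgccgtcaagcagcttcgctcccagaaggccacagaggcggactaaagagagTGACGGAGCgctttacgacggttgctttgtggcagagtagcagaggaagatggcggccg
Psmc6: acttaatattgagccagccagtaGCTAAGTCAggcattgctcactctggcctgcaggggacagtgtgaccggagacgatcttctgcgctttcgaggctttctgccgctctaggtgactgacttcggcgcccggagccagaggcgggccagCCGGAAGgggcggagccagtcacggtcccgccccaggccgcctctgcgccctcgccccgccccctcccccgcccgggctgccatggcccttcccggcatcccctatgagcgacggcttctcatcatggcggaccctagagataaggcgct
A match describes the letters only. Psma6 has another start in the table, whose promoter holds 2 CCAAT boxes and no ETS core. The promoter of Psma4, the gene with the largest difference between groups, holds none of these 3 motifs.

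Proteasome transcripts were abundant. The median over the 44 tested genes was 98.3 and 98.6 RPKM (wild-type) and 99.2 and 101 RPKM (knockout), against 15.4 to 16.1 RPKM over all tested genes. By role, the median lay at 155 to 184 RPKM for the alpha ring, 144 to 166 for the beta ring, 153 to 184 for the activators, 79.1 to 90.5 for the base, 86.4 to 94.9 for the lid and 18.1 to 25.8 for the assembly factors, as the range over the 4 libraries. The 8 alpha genes held 22.2% to 24.7% of the summed RPKM of the 46 genes, depending on the library. The 8 beta genes held 21.9% to 23%, the base 17.5% to 18.3%, the lid 15.2% to 15.5%, the activators 16.8% to 18.2% and the assembly factors 2.87% to 3.17%. The levels differed little between libraries. From lowest to highest library the tested genes spanned 1.05-fold (Psmd7) to 1.56-fold (Psmg3), and 30 of 44 spanned less than 1.2-fold. The median span on the log2(RPKM + 1) scale was 0.17, against 0.34 over all tested genes and 0.27 over the 2437 with a mean of at least 50 RPKM. No member was 2-fold apart on that scale, against 6.85% of tested genes and 3.49% of those with a mean of at least 50 RPKM.

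**Figure D1:**
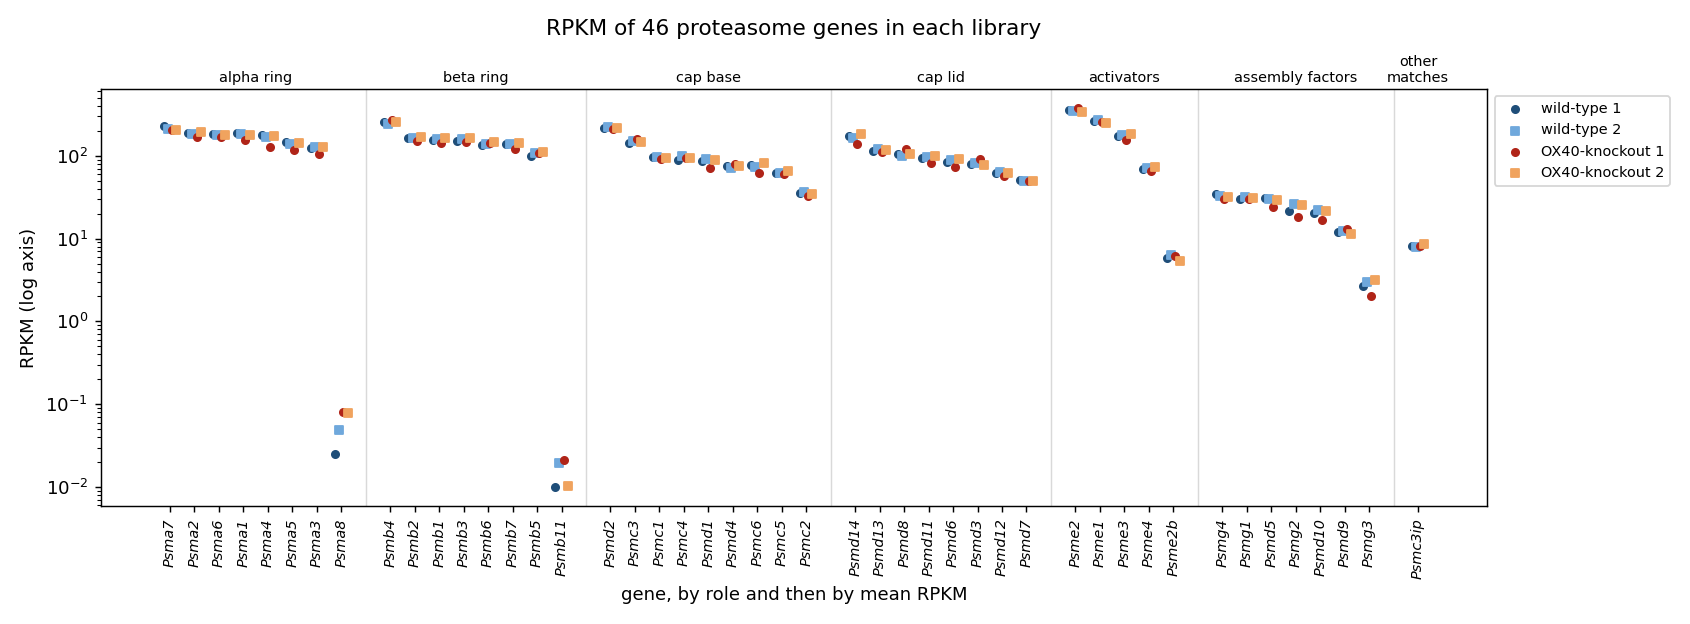
RPKM of the 46 genes in each library on a log axis, 1 point per library, grouped by role and ordered by mean RPKM. The 4 libraries nearly coincide for most genes, Psme2 stands highest at 339 to 375 RPKM, and Psma8 and Psmb11 lie near 0.

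In the alpha ring, Psma7 was the highest gene, at 226 and 213 RPKM (wild-type) and 203 and 205 RPKM (knockout). Psma3 was the lowest of the 7 ubiquitous ones, at 123 and 126 RPKM (wild-type) and 105 and 129 RPKM (knockout). Psma8, the testis form that takes the place of Psma7 in germ cells, was at 0.0254, 0.0484, 0.0797 and 0.0785 RPKM in wild-type 1 and 2 and OX40-knockout 1 and 2. These are 1 to 3 reads per library, so no fold is given. In the beta ring, Psmb4 was highest, at 257, 244, 267 and 258 RPKM in the same order of libraries. Psmb5 was lowest of the 7 ubiquitous genes, at 100, 109, 109 and 111 RPKM. Psmb6 stood at 134, 140, 142 and 147 RPKM, and Psmb7 at 137, 138, 121 and 141 RPKM. The 3 catalytic genes were the lowest of the 7 in every library. Psmb11, the subunit of thymic cortical epithelium, was at 0.0101, 0.0193, 0.0212 and 0.0104 RPKM (1 or 2 reads each). It is the next protein-coding gene to Psmb5 in RefSeq order, with only Mir686 between them.

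The cap genes covered a wider range of levels. In the base, the scaffold gene Psmd2 was at 215, 223, 211 and 218 RPKM in wild-type 1 and 2 and OX40-knockout 1 and 2, the highest of 9. The ATPase gene Psmc2 was the lowest, at 35.1, 36.4, 32.6 and 34.5 RPKM, although each cap holds the ATPases in equal number. The other ATPase genes ran up to Psmc3, at 144, 149, 160 and 146 RPKM. In the lid, the deubiquitinase gene Psmd14 was highest, at 173, 162, 137 and 181 RPKM. Psmd7, its partner in the catalytic dimer, was lowest, at 51.6, 50, 49.1 and 49.9 RPKM. Subunits that the complex holds in equal number thus differed several-fold in transcript level per length. The order was the same in each library for these extremes. Recovered reads lay closer. Over all libraries they were 1904 to 2335 for Psmc2 and 3098 to 3410 for Psmc3, at lengths of 2626 and 940 bases. For Psmd7 they were 1745 to 1950 and for Psmd14 2096 to 2814, at 1599 and 689 bases. No source used here names the annotation behind these lengths.

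Among the activators, the interferon-inducible pair Psme1 and Psme2, whose products form a ring that opens the core gate, stood highest. Psme1 was at 262, 267, 258 and 250 RPKM and Psme2 at 360, 348, 375 and 339 RPKM. The ratio of Psme2 to Psme1 was 1.37, 1.3, 1.45 and 1.36. The pair are near neighbours, with Emc9 between them in RefSeq order. Psme3, the nuclear relative, was at 172, 179, 153 and 184 RPKM, and Psme4, a large single-chain activator, at 70.1, 71.5, 65.6 and 72.3 RPKM. Psme2b, a close copy of Psme2, was at 5.76, 6.32, 6.18 and 5.29 RPKM. It shares 68.7% of its 50-base words with Psme2, and no source used here gives how reads of such copies were divided, so its value is uncertain. Of the 46 genes, 9 share at least 10% of these words with other genes (Psma3, Psma4, Psma5, Psmb3, Psmb5, Psmc1, Psmd2, Psme2 and Psme2b). Their values carry the same uncertainty. The share is 54.1% in Psmb5, 49.1% in Psma5, 28.3% in Psme2 and 11.6% in Psma4. The place of Psmb5 as the lowest ubiquitous beta gene, and the ratio of Psmb8 to Psmb5 given below, are uncertain for this reason.

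The assembly factors were far lower. The Psmg genes encode the chaperones of the alpha ring, which act as the pairs Psmg1 with Psmg2 and Psmg3 with Psmg4. Psmg4 was the highest factor, at 34.3, 32.9, 30.4 and 31.6 RPKM, and Psmg1 was at 30.4, 32.1, 30.1 and 30.5 RPKM. Psmg2 was at 21.5, 25.8, 18.1 and 25.3 RPKM. Psmg3 was lowest, at 2.7, 2.97, 2.02 and 3.14 RPKM from 60 to 97 reads, the fewest of any tested member. Psmg3 and its partner Psmg4 were thus more than 10-fold apart in RPKM in each library. Their reads lay closer, with 347 to 413 per library for Psmg4, at lengths of 1339 bases for Psmg3 and 514 for Psmg4. Of the base chaperones, Psmd5 was at 30.6, 30.3, 24.3 and 29.1 RPKM, Psmd10 (gankyrin) at 16.9 to 22.1 RPKM and Psmd9 at 11.5 to 13.2 RPKM. The rule also takes Psmc3ip, whose product acts in meiotic recombination and is no subunit. It was at 8.24, 7.84, 8.12 and 8.64 RPKM.

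Between genotypes no proteasome gene passed the test. With limma on log2(RPKM + 1), 0 of 44 had an adjusted p under 0.05 (0% of all 11625 genes tested did), and 0 of 44 had an unadjusted p under 0.05, against 1.39% of all genes (0.843% lower and 0.551% higher in the knockout). limma-voom on recovered reads gave 0 of 44 by either measure too. The changes were small, from -0.23 for Psma4 to 0.13 for Psmd8, with standard errors of 0.1 to 0.22 and limma adjusted p of 0.975 to 0.996. Of the 44, 33 were lower on average in the knockout (75%, against 56.6% of all genes) and 11 higher (43.4% of all genes were), with a median of -0.06 against -0.03. In 10 genes both knockout libraries lay below both wild-type libraries (17.8% of all genes did), and in 3 they lay above (8.66% of all genes did). The lower genes were Psma1, Psma6, Psma7, Psmc1, Psmc2, Psmd7, Psmd12, Psme1, Psmg4 and Psmd5, and the higher ones Psmb4, Psmb6 and Psmd4. The majority of lower genes was not kept without OX40-knockout 1. Without that library 21 genes were lower and 23 higher (41.1% of all genes were higher), and the median was 0.03, against -0.03 over all genes.

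**Figure D2:**
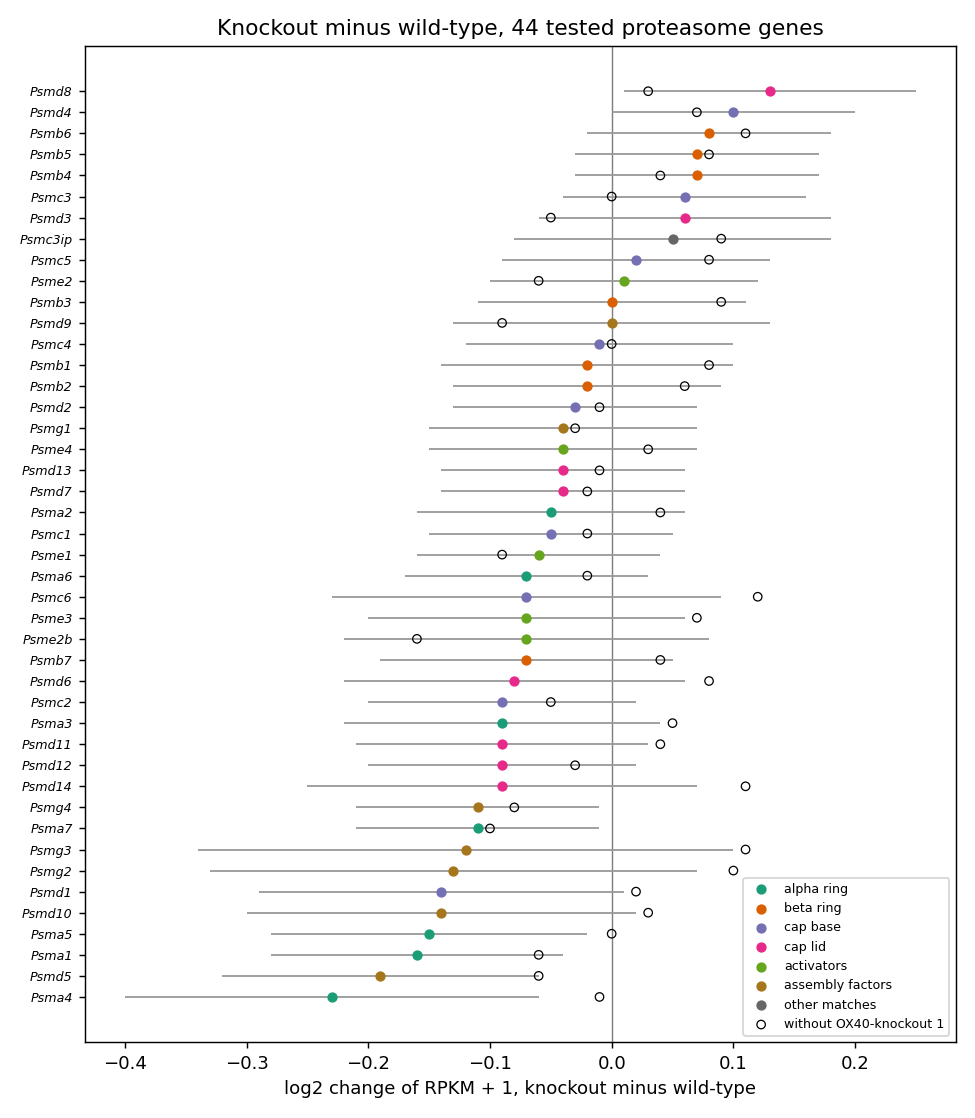
Log2 change of RPKM + 1, knockout minus wild-type, for the 44 tested genes in order, with bars of 1 standard error and colour by role, and open circles for the change without OX40-knockout 1. The changes run from -0.23 to 0.13, and most open circles of the lower genes sit nearer to or above 0.

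By role, all 7 tested genes of the alpha ring were lower, with a median of -0.11. Psma4, a gate subunit, was at 176 and 170 RPKM (wild-type) and 127 and 172 RPKM (knockout). Only OX40-knockout 1 was low, and OX40-knockout 2 lay between the wild-type libraries. Its log2 change was -0.23 (SE 0.17, limma adjusted p = 0.975), and -0.01 without OX40-knockout 1. Psma1 was at 189 and 183 against 155 and 178 RPKM, a change of -0.16 (SE 0.12). Its groups did not overlap, but the gap between wild-type 2 and OX40-knockout 2 was small beside that between the knockout libraries. Psma5 was at 147 and 139 against 117 and 142 RPKM (-0.15, SE 0.13), again with OX40-knockout 1 alone low. Psma7 was the exception, with both knockout libraries similarly below the wild-type ones and a change of -0.1 without OX40-knockout 1.

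The beta ring did not share this direction, with 4 genes lower, 3 higher and a median change of 0. Psmb6 was higher in both knockout libraries (0.08, SE 0.1), as was Psmb4 (0.07, SE 0.1). Psmb5 was higher on average (0.07, SE 0.1), but wild-type 2 and OX40-knockout 1 both stood at 109 RPKM. OX40-knockout 2 was the highest library for 6 of 7 beta genes (19.4% of all genes), and for 2 of 7 alpha genes. Without OX40-knockout 1 all 7 beta genes were higher in the knockout (41.1% of all genes), with a median of 0.08. None passed in that fit.

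In the base 6 of 9 genes were lower and in the lid 6 of 8, with medians of -0.03 and -0.06. The ubiquitin receptor gene Psmd4 was at 74.4 and 70.3 against 79.1 and 76.1 RPKM (0.1, SE 0.1), the knockout libraries above the wild-type ones. Psmd8, a lid subunit, was at 106 and 98.3 against 120 and 104 RPKM (0.13, SE 0.12), so the groups overlapped. Psmd1, which anchors a ubiquitin receptor, was at 85.7 and 90.5 against 71 and 89.4 RPKM (-0.14, SE 0.15). Without OX40-knockout 1 the changes of Psmd4, Psmd8 and Psmd1 were 0.07, 0.03 and 0.02. The knockout libraries lay on opposite sides of the wild-type ones for Psmd14, at 137 RPKM in OX40-knockout 1 and 181 RPKM in OX40-knockout 2. Activators had 4 of 5 genes lower (median -0.06) and assembly factors 6 of 7 (median -0.12). The lowest p of all 44 was that of Psmd5, at 30.5 ± 0.215 against 26.7 ± 3.37 RPKM (mean ± SD, n = 2 each; -0.19, SE 0.13, limma adjusted p = 0.975). Psmd5 was at 24.3 RPKM in OX40-knockout 1 and 29.1 RPKM in OX40-knockout 2, and its change was -0.06 without OX40-knockout 1. Psmg4 had a log2 change of -0.11 (SE 0.1), with both knockout libraries below the wild-type ones, and of -0.08 without OX40-knockout 1.

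The larger contrast ran between OX40-knockout 1 and the other 3 libraries. It was the lowest library for 31 of 44 genes (70.5%, against 42.6% of all genes) and the highest for 7 (15.9%, against 36.9%). All 7 tested alpha genes, 4 of 7 beta genes, 12 of 17 cap genes, 2 of 5 activators and 6 of 7 assembly factors were lowest there. The median deviation from each gene's 4-library mean of log2(RPKM + 1) was -0.18 for the alpha ring in OX40-knockout 1, against 0.09 and 0.04 in wild-type 1 and 2 and 0.06 in OX40-knockout 2. For the assembly factors it was -0.22, against 0.01, 0.09 and 0.03. For the beta ring, base and lid it was -0.08, -0.06 and -0.08. For the activators it was -0.01, and their lowest median was in OX40-knockout 2, at -0.05. Psma4, named for its largest deviation, stood in OX40-knockout 1 at 127 RPKM (exact Poisson interval at 95%, 122 to 133, from 2122 reads), and the lowest of the other libraries was at 170 RPKM (164 to 176, from 3121 reads). The intervals cover counting error only. In the same library Cd4, Cd8a and H2-Ab1 were highest of the 4 and Klrb1c, Eomes and Ncr1 lowest. Lyz2 and Itgax, listed with H2-Ab1, were lowest there too. The part of these cell markers in the result was not tested. This contrast is between single libraries and has no replicate check, and a lower share of proteasome transcripts per cell and a different mix of cells cannot be told apart in bulk RNA.

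**Figure D3:**
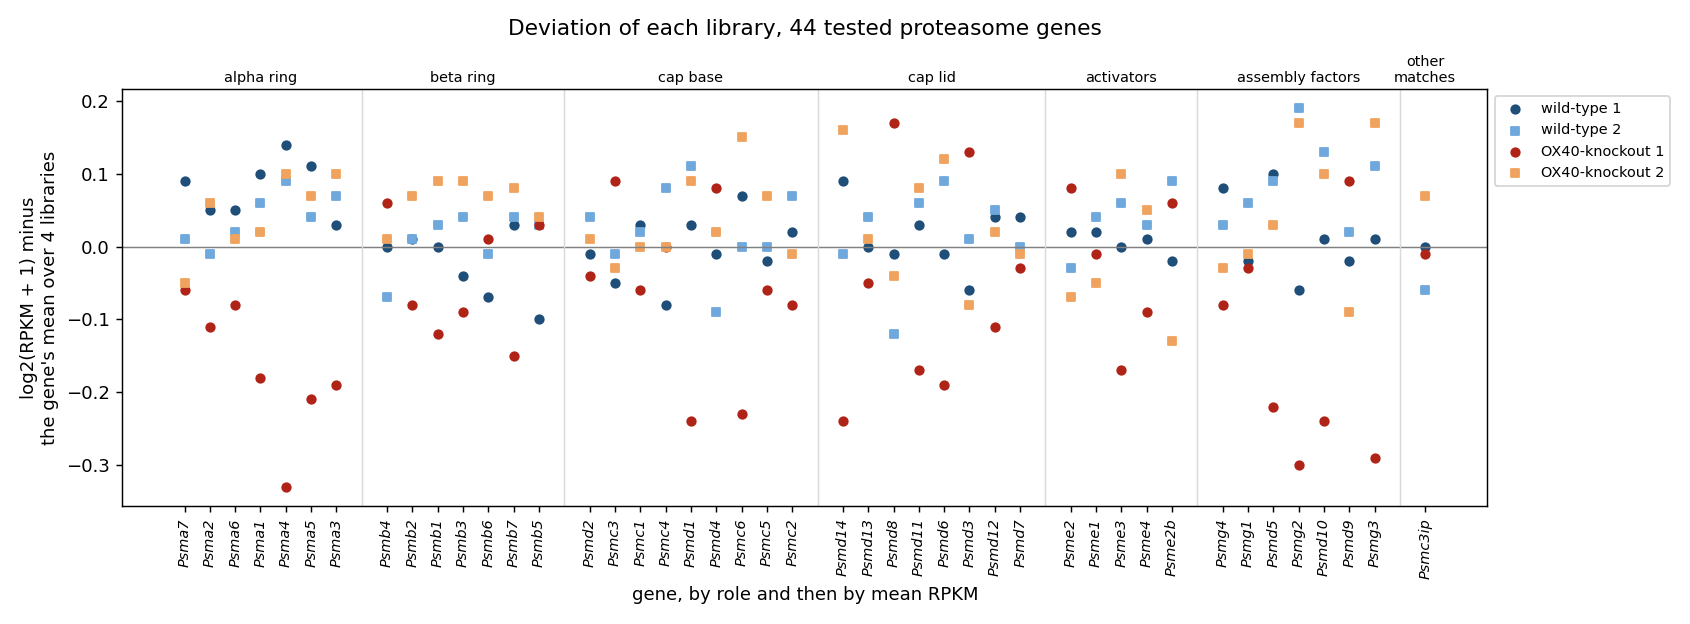
Deviation of each library from the gene's mean over the 4 libraries, in log2(RPKM + 1), for the 44 tested genes grouped by role. OX40-knockout 1 lies lowest for all 7 alpha genes, down to -0.33 for Psma4, and highest for 7 genes such as Psmd8 at 0.17 and Psmd3 at 0.13.

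The genes that were and were not lowest in OX40-knockout 1 differed in base composition. Mean transcript GC content ran from 40.6% (Psma2) to 57% (Psmb5). Of the 23 genes below 50% GC, a value chosen after seeing the data, 21 were lowest in OX40-knockout 1 and 0 highest, with a median deviation of -0.17. Of the 21 genes at or above it, 10 were lowest there and 7 highest (Psmb4, Psmc3, Psmd4, Psmd8, Psmd3, Psme2 and Psmd9), with a median of -0.01. The same counts were not made over all genes on each side of this value. Across the 44 genes GC content and the deviation of OX40-knockout 1 had r = 0.64 (a description over genes of 1 library, which share its depth and composition). Over the 11575 tested genes with a GC value r was 0.44. Psmg3, at 52.6% GC and -0.29, stood off this line and is also the gene with fewest reads.

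The alpha ring and the beta ring differ in the same property, with medians of 45.8% and 51.3% GC. When the GC trend of all genes was removed from each library, the median deviation of the alpha ring in OX40-knockout 1 went from -0.18 to -0.06 and that of all 44 genes from -0.08 to -0.04, and r became -0.23. OX40-knockout 1 was then lowest for 25 of 44 genes (36.4% of all genes). In that fit 23 genes were lower and 21 higher in the knockout (50.6% of all genes were higher), with 3 of 7 alpha genes and 6 of 7 beta genes higher. Psma4 kept a deviation of -0.22 and Psmg3 -0.33, while Psma2 went from -0.11 to 0.1. The median change of the base went from -0.03 to 0.02, while the correction moved the median of all genes by 0.03.

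**Figure D4:**
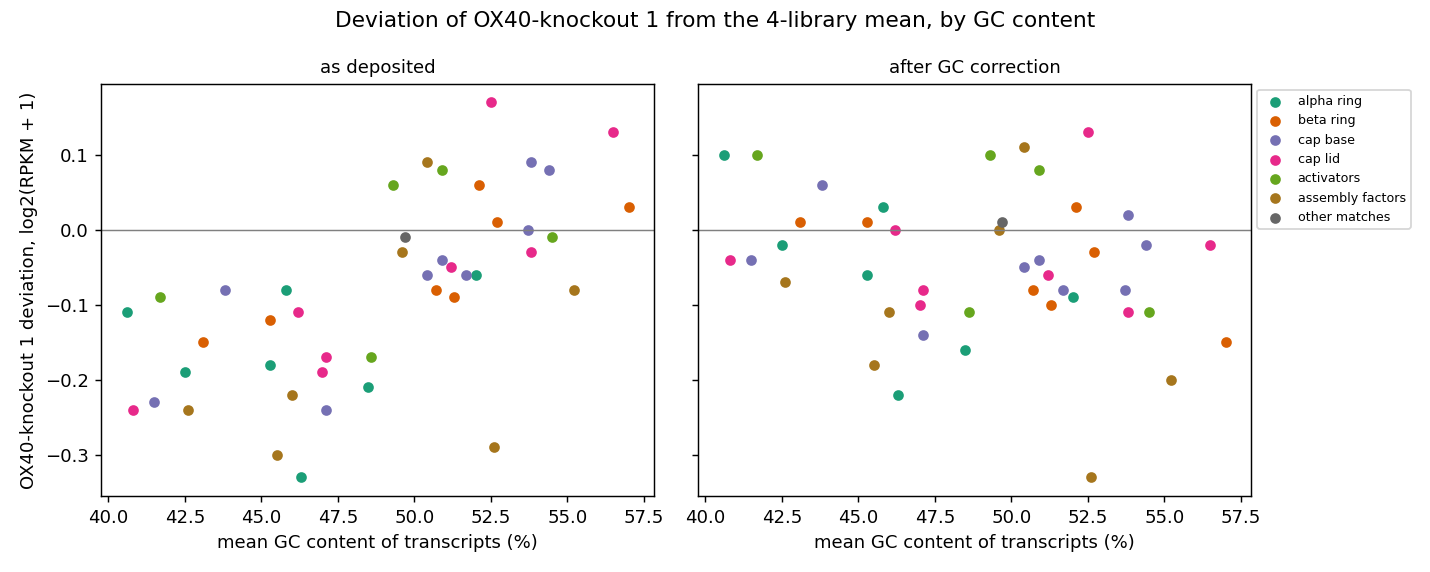
Deviation of OX40-knockout 1 from the 4-library mean in log2(RPKM + 1) against mean transcript GC content in percent, 1 point per tested gene coloured by role, as deposited (left) and after the GC trend of all genes was removed (right). On the left the points climb with GC content (r = 0.64), and on the right they do not (r = -0.23).

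Genes that work with the proteasome did not pass either. From a list of 29 such genes 28 were measured, and 0 of 28 had a limma adjusted or unadjusted p under 0.05. Over all genes tested, 0% and 1.39% did. Of the 28, 15 were lower (53.6%, against 56.6% of all genes) and 13 higher, with a median of -0.01 against -0.03. The lowest p among the lower genes were those of Ecpas, an adaptor of the particle, at 84.5 and 80.6 against 67.4 and 78.8 RPKM, and Ube3c, a ubiquitin ligase that binds it, at 12 and 12.2 against 10.5 and 11.3 RPKM. Among the higher ones, Zfand2a, a stress-induced adaptor, was at 24.4 and 21.3 against 29.3 and 25.7 RPKM. Nfe2l1 was at 77.8 and 81.5 against 81.6 and 82.1 RPKM, so the transcript of the known activator lay within a narrow range. Pomp, the core maturation factor, was at 173 and 181 against 167 and 201 RPKM. The deubiquitinase gene Usp14 was at 69.7 and 69.3 against 47.4 and 74.3 RPKM, with OX40-knockout 1 low as in Psma4. The ubiquitin receptor gene Adrm1 was highest in that library, at 63.3 and 62.6 against 89.9 and 59.3 RPKM. Transcript GC content was 40.6% for Usp14 and 57.1% for Adrm1. OX40-knockout 1 was the lowest library for 15 of the 28 genes (it was for 42.6% of all genes).

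The immunoproteasome genes, which replace Psmb5 to Psmb7, were lowest in OX40-knockout 2 (27.9% of all genes were). Psmb8 was at 131 and 132 against 137 and 108 RPKM, Psmb9 at 128 and 135 against 153 and 103 RPKM and Psmb10 at 99.7 and 104 against 105 and 92.1 RPKM. The ratio of Psmb8 to Psmb5 was 1.31, 1.2, 1.25 and 0.971, that of Psmb9 to Psmb6 was 0.957, 0.967, 1.07 and 0.702, and that of Psmb10 to Psmb7 was 0.73, 0.754, 0.874 and 0.654. After the GC correction Psmb8 and Psmb9 were still lowest there, with deviations of -0.17 and -0.25, but Psmb10 was lowest in OX40-knockout 1, at -0.14 against -0.02 in OX40-knockout 2. All 3 ratios of the deposited values were lowest in OX40-knockout 2, and none of the 3 genes passed between genotypes (limma adjusted p = 0.975 each).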

How the data were processed

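The deposited table held RPKM values per Ensembl gene and library. Bowtie 0.12.2 and the build mm8 are named per the submitters' processing notes, while no source used here names the annotation, the counting tool or the strand setting. The RPKM unit was settled from the values: in single-transcript genes at least 82.6% of values above 0 in each library were whole reads (tolerance 0.02) at the GENCODE vM21 length. Reads were recovered as whole numbers that fit a whole length. A fit within 1% of the mean annotated transcript length was taken first. Such a length was found for 12856 of the 20996 genes above 0 and for 27 of the proteasome genes. Otherwise the smallest whole numbers with a length within 3-fold of the annotated one were taken, or else the nearest length. The recovered reads may be several-fold too low for some genes. They sum to 99.5% to 99.6% of the library totals, which were themselves estimated from the RPKM values and lengths of single-transcript genes. Symbols, lengths and GC content came from GENCODE vM21 (GRCm38), which names 34490 IDs. No gene coordinates are given from it because the builds differ. Promoter coordinates are those of the RefSeq table.

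limma 3.58.1 (R 4.3.3, trend option) was fitted to log2(RPKM + 1) of all 4 libraries without a block, for the 11625 genes averaging 1 RPKM or more, with Benjamini-Hochberg adjustment over all of them. The fit was tested on simulated data with independent noise and changes far larger than those of the proteasome genes. That test does not bear on small changes or on a library that stands apart. An exact permutation test of 2 against 2 libraries cannot pass, so none was used. Preparation used Python 3.11.15, numpy 2.4.6 and pandas 2.3.3. The members and lists were chosen with earlier results of these data known. Genes given in every library were the catalytic genes, the highest and lowest of each role, the tissue-restricted, activator and Psmg genes, and the 5 of lowest p in each direction; others were picked after their values were seen. Trdc and Paaf1 were not analysed here. A gene of the pathway list that the naming rule takes is not reported here.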

Additional observations from a re-analysis of the deposited data

How the results depend on the processing

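No proteasome gene was called under any of the 13 alternatives. Over all genes the count called went from 0 to 5 with the replicate number as a block (Wdfy1, Dynlt1b, Tmem181b-ps, Gm28438 and Gm47283), to 5 with the GC correction and the block, to 1 with quantile normalization, and lay between 0 and 1 when a library was left out. Nothing in the labels pairs libraries by number. Deviations of same-numbered libraries had r = 0.47 over 11625 genes, and the block changed no call of a proteasome gene. The medians of role groups were small and moved with the setting. With the GC correction, with or without the block, the base went from -0.03 to 0.02, the lid from -0.06 to -0.01 and the activators from -0.06 to -0.01. With TMM or median-of-ratios factors the activators stood at -0.03. Leaving out a library in turn gave medians of -0.11 to 0.03 for the 44 genes together, -0.24 to -0.01 for the alpha ring, -0.09 to 0.08 for the beta ring, -0.05 to 0 for the base, -0.11 to 0.01 for the lid, -0.07 to -0.03 for the activators and -0.31 to -0.03 for the assembly factors. Without OX40-knockout 2, 14 of 44 genes had a limma unadjusted p under 0.05 (33% of all genes did) and the lowest adjusted p was 0.0613. Signs differed from the reported ones in 20 of 44 genes without OX40-knockout 1, in 14 with the GC correction and in 4 and 5 with TMM and median-of-ratios factors. The GC correction and both factors each shift the median of all genes by 0.03. The causes were not tested.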
